A study of Homo sapiens with 30 samples.

Results

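The regions described here are the annotated start regions of microRNA genes in the MEL624 human melanoma cell line, 453 of the 16009 gene starts for which the authors deposited values. A start region was taken when its gene has the type miRNA in the GENCODE 44 annotation of build hg38 and a symbol of MIR plus a number, or MIRLET7. Of the 459 starts of that type, 6 were left out because their symbols had another form, and long host transcripts whose symbols end in HG were not taken. The study mapped the start regions that an antibody against N6-methyladenosine (m6A) pulls down, with and without the enzyme PCIF1. Messenger RNA was purified in 2 rounds from about 200 ug of total RNA, the RNA was treated by the m6Am-Exo-Seq protocol, which keeps capped 5' ends, and directional libraries were made before (input) and after immunoprecipitation (IP). The 12 libraries used here are 3 inputs and 3 IPs of control cells, which are wild type and carry a random guide RNA, and 3 inputs and 3 IPs of PCIF1 knockout (KO) cells. All IPs were made with antibody 4, a mouse monoclonal antibody of clone 212B11 from Synaptic Systems. The series holds 30 samples, and its 18 first-stage samples, which compared 8 antibodies on 1 clonal KO line and 1 control line, are not analysed here. The labels call the second-stage samples biological replicates but do not say whether the KO replicates are separate clones, so the p-values refer to the spread among these libraries only.

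Most microRNAs are cut from a primary transcript that RNA polymerase II makes and caps like a messenger RNA. In the nucleus Drosha and DGCR8 cut out a hairpin, exportin-5 carries it to the cytoplasm, and Dicer trims it to the mature microRNA, which pairs with its targets mainly through the seed, bases 2 to 8. The annotated gene of a microRNA is the hairpin, so its 5' end is usually a processing site and not the place where transcription starts. Exceptions are hairpins at the very start of a transcript, some of which keep the cap, and mirtrons are short introns that splicing, not Drosha, releases as hairpins. PCIF1 adds a methyl group to a capped adenosine at the first position of an mRNA, giving m6Am, and antibodies against m6A bind m6Am as well as m6A inside the transcript. The assay counted fragments of polyadenylated RNA near annotated 5' ends and did not measure mature microRNAs.

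The members were sorted by what else starts near their annotated 5' end on the same strand, within 200 bases. In 129 members a gene of another type had a transcript start there or inside the hairpin gene. In 42 of these it was the start of the partner gene's main (Ensembl canonical) transcript, and in 87 only of another transcript of the partner. Another 14 members lay next to the start of a neighbouring microRNA gene only. Of the rest, 16 had a start nearby on the opposite strand only, and 14 had no gene start or host gene on their strand. The largest class, 280 members, lay inside a host gene with no start nearby, 98 with their 5' end in an exon of the host and 182 in an intron. Reads counted for a member with a shared start may be reads of the partner's own mRNA, and reads of a member inside a host may be pieces of the host's transcript. The files do not separate these sources, the strand setting of the counting is not given in the sources used here, and the class of a member is a matter of annotation alone.

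For members that share the main start of an mRNA, the base that PCIF1 would meet is the first base of that mRNA. The following 30-base windows of hg38, read from the reference genome, are shown because these members carry the clearest results of that class below. Each runs 5' to 3' on the strand of the gene, with 15 bases before the start and the start base in capitals.
HNRNPA3 and MIR4444-1, chr2:177212779-177212808, plus strand: agaggcgagtccggtCtcaaaatggaggta
HSP90B1 and MIR3652, chr12:103930395-103930424, plus strand: acctgcttgcggtgtAgtgggcggaccgcg
CDC37 and MIR1181, chr19:10403528-10403557, minus strand: gggctccgcgctcctAgtctccactgctgc
NOP56 and MIR1292, chr20:2652617-2652646, plus strand: gagcgcgctagccgcAttgcgagccgaacc
IRAK1 and MIR718, chrX:154019888-154019917, minus strand: gctcgaaggggaagtGagtcagtgtccgcg
AGFG1 and MIR5703, chr2:227472141-227472170, plus strand: ccttcctcgtcttttCccctcaggagaagt
TMEM42 and MIR564, chr3:44861897-44861926, plus strand: ggtgccaggcacggtGtcagcaggcaacat
The starts of HSP90B1, CDC37 and NOP56 are adenosines, and the other 4 are not.

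Mature sequences were found for 426 of the 453 members in RefSeq (GRCh38.p14). Among them 121 members share a seed with another member, in 60 seeds. The let-7 family, 5 of whose genes are members, is shown because it is the largest group with 1 seed. The 3 members with the seed GGCGGGG are shown because they had unlike values below, and the last 3 belong to members that the results on host genes turn on. Capitals mark the seed, bases 2 to 8.
hsa-let-7a-5p: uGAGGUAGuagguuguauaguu
hsa-let-7b-5p: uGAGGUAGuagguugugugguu
hsa-let-7i-5p: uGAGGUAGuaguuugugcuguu
hsa-miR-1908-5p: cGGCGGGGacggcgauugguc
hsa-miR-663a: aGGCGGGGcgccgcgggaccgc
hsa-miR-6787-5p: uGGCGGGGguagagcuggcugc
hsa-miR-6797-5p: aGGAGGGAaggggcugagaacagga
hsa-miR-6728-5p: uUGGGAUGguaggaccagagggg
hsa-miR-21-5p: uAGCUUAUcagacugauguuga

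The deposited values are log2 CPM, the reads in a start region scaled to the size of the library, on a log2 scale. They held whole reads, with 3232562 to 4094070 reads in the listed genes in the control inputs, 2836120 to 3544669 in the KO inputs, 4035815 to 4625190 in the control IPs and 1753164 to 2177874 in the KO IPs. The KO IPs were thus the shallowest libraries. PCIF1 itself, the targeted gene, stood at 57.8, 52.5 and 49.4 CPM before IP in control cells and at 70.4, 78.0 and 77.1 CPM before IP in KO cells. Its start region was therefore higher in the KO inputs, by 0.50 ± 0.14 on the log2 scale (SE, n = 3 per group, adjusted p = 0.0229). Where the gene was cut is not given in the labels, so reads at its start check nothing about the knockout. Of 7 melanocyte markers listed to check the cell line, MITF alone has a row (8.25 to 14.0 CPM before IP in control cells and 9.17 to 10.7 CPM before IP in KO cells), and the other 6 and 5 markers of other cell types are not analysed here. These are bulk libraries, in which fewer cells with a transcript and less of it per cell cannot be told apart.

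Over the 12 libraries the median member had a mean of 2.81 on the log2 CPM scale, against 3.80 for all 16009 starts. Members ranged from -2.15 to 11.81, and 325 had a mean of at least 1. Reads were concentrated, since the 5 most abundant members held 43.4% of all member reads. In the control inputs, members took 2.78, 2.84 and 3.18% of the reads of listed genes, and in the control IPs 1.45, 1.41 and 1.56%. The KO inputs gave 2.64, 2.83 and 2.71%, and the KO IPs 2.67, 2.68 and 2.66%. In control cells every share after IP lay below every share before it, from 2.93% ± 0.216 down to 1.47% ± 0.0777 (SD, n = 3), while in KO cells the shares before and after IP overlapped, at 2.73% ± 0.0961 and 2.67% ± 0.01.

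In control cells, the question was which microRNA starts the antibody enriched. Enrichment is the IP value minus the input value on the log2 scale, estimated by limma in 1 fit over all 16009 starts, and a start counted as called when its p, adjusted by Benjamini and Hochberg's method, was under 0.05. Among the 453 members, 300 were lower in the control IP than in the input and 25 were higher, whereas over all starts 28.2% were lower and 27.7% higher. The median enrichment of the members was -1.52, against -0.01 for all starts and 0.03 for protein-coding starts. The 3 IP and 3 input values did not overlap in 360 members, 79.5% of them, against 66.5% of all starts. The difference was also seen among well covered members, since 70 of the 93 with a mean of at least 5 were lower, against 32.7% of protein-coding starts at that level.

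Without PCIF1 the picture was more even. In KO cells 154 members were lower in the IP and 90 were higher, where 31.0% and 28.4% of all starts were, and the median was -0.38 against -0.07. The 2 genotypes were then compared directly by the difference of the enrichments, control minus KO, called PCIF1-dependent enrichment here. It is positive where the antibody pulled down a start better with PCIF1 present. It was below 0 and called in 202 members and above 0 and called in 15, where over all starts 13.0% were lower and 15.8% higher. The median was -1.12 for members, 0.06 for all starts and 0.18 for protein-coding starts. Among the 93 members with a mean of at least 5, 70 were lower in this difference, against 15.0% of protein-coding starts at that level. The KO IPs alone, set against the control IPs, had 247 members higher and 29 lower, where 23.0% and 26.0% of all starts were. Start regions of small nucleolar RNAs, another class of short genes that lie mostly inside hosts, gave 132 of 211 lower and 0 higher in PCIF1-dependent enrichment by limma, with a median of -1.60. The KO IPs were also the shallowest libraries, and the part of depth in these differences was not tested.

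**Figure D1:**
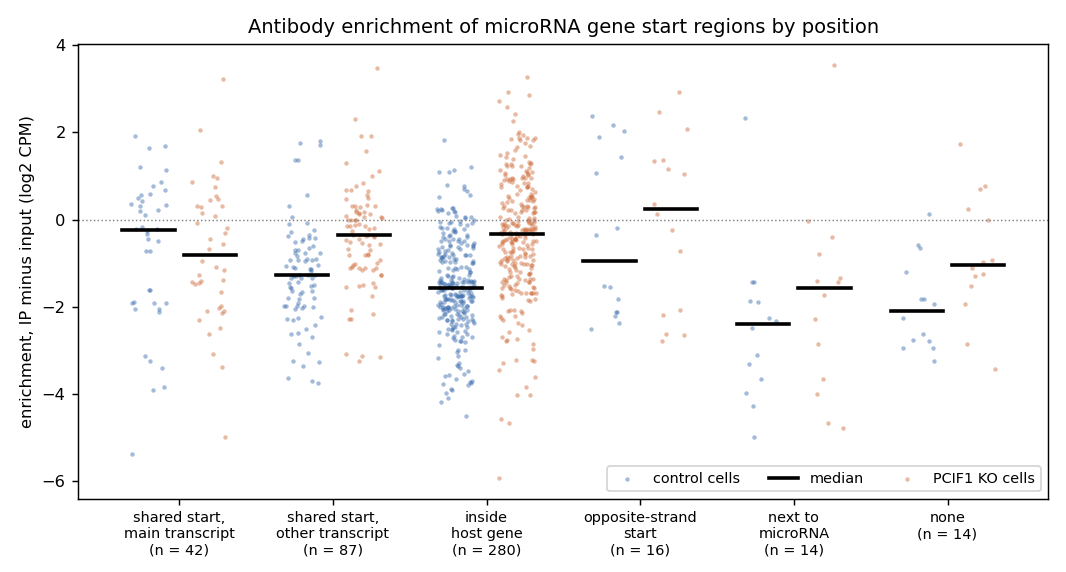
Enrichment (IP minus input, log2 CPM) of each of the 453 members in control cells (blue) and PCIF1 KO cells (orange), by what starts near the member's 5' end; black bars are medians and points are spread sideways at random. In control cells the 280 members inside a host gene have a median of -1.57 and the 42 on a partner's main start one of -0.25.

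These counts depend on what the libraries are scaled to. When each library was centred on 77 cytosolic ribosomal protein mRNAs, the median enrichment of all starts rose from -0.01 to 1.17 in control cells and from -0.07 to 0.55 in KO cells, and 63.6% of all starts were then higher and 5.83% lower in control cells. Members were then 98 higher and 124 lower in control cells (median -0.33). In KO cells 151 were higher and 81 lower, where 45.8% and 14.7% of all starts were, and the members' median turned positive at 0.24. PCIF1-dependent enrichment kept its direction, with 27 higher, 116 lower and a median of -0.55, where 37.6% and 4.9% of all starts were (median 0.62). The members' medians relative to that of all starts, -1.50 in control cells, -0.31 in KO cells and -1.17 in PCIF1-dependent enrichment, cannot change with such a centring, which moves all starts of a library alike.

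Values differed with the position of the member. Over all starts, 27.7% were higher and 28.2% lower in control cells, 28.4% and 31.0% in KO cells, and 15.8% and 13.0% in PCIF1-dependent enrichment. Members on a partner's main start lay near these shares in control cells, with 11 of 42 higher (26.2%) and 14 lower (33.3%). In PCIF1-dependent enrichment 12 were higher (28.6%) and 5 lower (11.9%), with a median of 0.22, where 19.9% and 10.2% of protein-coding starts were. Members on another transcript's start had 3 of 87 higher and 62 lower in control cells, and 1 higher and 47 lower in PCIF1-dependent enrichment (median -1.08). Inside host genes 6 of 280 were higher and 200 lower in control cells, 62 higher and 93 lower in KO cells, and 2 higher and 144 lower in PCIF1-dependent enrichment (median -1.25). Members in host exons and in host introns gave similar splits of that difference, 1 higher and 53 lower of 98 and 1 higher and 91 lower of 182. Among members with a mean of at least 1, PCIF1-dependent enrichment was below 0 in 199 of 208 inside hosts (95.7%), in 61 of 68 on another transcript's start and in 14 of 31 on a main start, against 45.3% of all starts at that level. With the libraries centred on ribosomal protein mRNAs, members inside hosts had 50 higher and 84 lower in control cells. They had 97 higher and 48 lower in KO cells, so that the balance there turned. Of all starts 63.6% were then higher and 5.83% lower in control cells, and 45.8% and 14.7% in KO cells. The shift was thus seen over all starts as well. Members on a main start then had 26 higher and 6 lower in control cells and 14 and 13 in KO cells, and those on another transcript's start 14 and 25, and 30 and 13. PCIF1-dependent enrichment was then higher in 7 and lower in 92 inside hosts (median -0.68). On another transcript's start it was higher in 3 and lower in 22 (-0.51), and on a main start in 17 and 1 (0.78). Over all starts 37.6% were then higher and 4.9% lower (median 0.62), so 17 higher of 42 on a main start was near the share of all starts. The split into main and other starts was chosen after values were seen. On the deposited scale, PCIF1-dependent enrichment was lower in 2 of 14 members next to another microRNA (14.3%). With an opposite-strand start it was lower in 2 of 16 (12.5%), and with neither start nor host in 2 of 14 (14.3%). These shares lay near the 13.0% of all starts. Next to another microRNA 13 of 14 were lower in control cells (median -2.4), where 28.2% of all starts were.

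**Figure D2:**
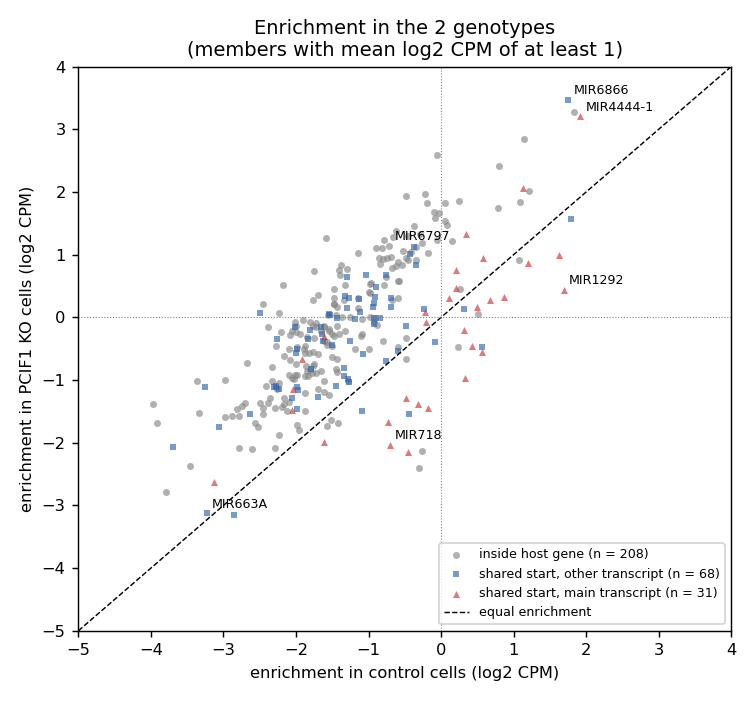
Enrichment in PCIF1 KO cells (vertical, log2 CPM) against enrichment in control cells (horizontal, log2 CPM) for members with a mean log2 CPM of at least 1. Colours and markers show the position of the member: 208 inside a host gene, 68 on another transcript's start and 31 on a main start. The smaller classes are not plotted. Members inside a host gene lie mostly above the dashed line of equal enrichment, 199 of 208 of them.

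Calls in both genotypes were then combined. Members lower in the control IP and higher in the KO IP numbered 32, or 7.06%, where 1.31% of all starts did this, and 28 of the 32 lay inside a host gene. The opposite pattern, higher in the control IP and lower in the KO IP, was seen in 3 members, MIR3610, MIR6791 and MIR6869, where 1.54% of all starts showed it. These 3 lie on starts of RAD21, a cohesin subunit, of GPR108 and of FKBP1A, a prolyl isomerase, and they are named here after their values were seen. MIR6869, for example, had 53.8, 44.1 and 42.1 CPM before and 81.4, 63.8 and 62.0 CPM after IP in control cells, but 29.9, 33.4 and 25.4 CPM before and 23.1, 20.5 and 16.7 CPM after IP in KO cells. Its IP values lay above the inputs in control cells and below them in KO cells, with no overlap. Lower in both genotypes were 134 members (29.6%, against 19.1% of all starts), and higher in both were 19 (4.19%, against 19.0%).

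The host comparison used the 264 members inside a host whose own start has a value, with 248 hosts. The member's enrichment lay below that of the host's start in 230 of 264 pairs in control cells, in 147 in KO cells and in 240 in PCIF1-dependent enrichment. The median of member minus host was -1.51 in control cells and -0.27 in KO cells, while the host starts themselves had medians of 0.02 and -0.09. Across the pairs the enrichment of member and host in control cells hardly went together (Pearson's r = 0.132, n = 264 pairs), whereas their changes in input between genotypes did so more (r = 0.426). The pairs share the same 12 libraries, so these are descriptions of the pairs and not tests.

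**Figure D3:**
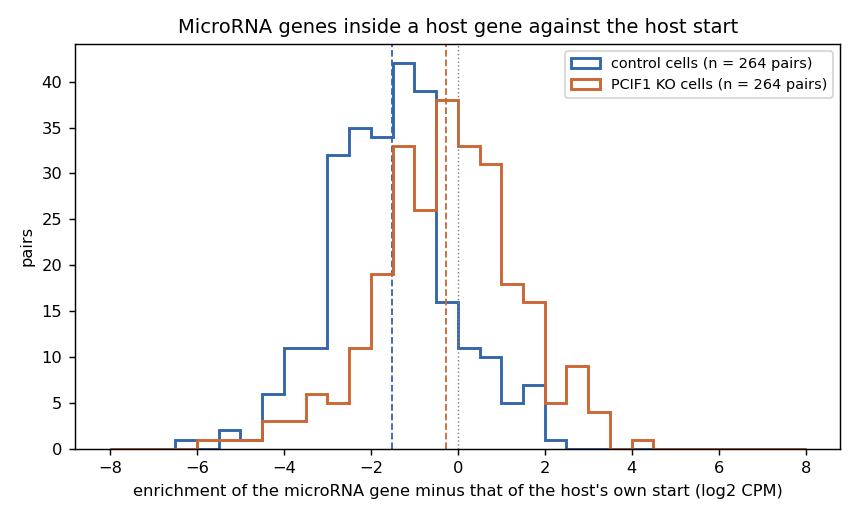
Number of pairs (vertical) by the enrichment of the microRNA gene minus that of its host gene's own start (horizontal, log2 CPM), for 264 pairs in control cells (blue) and PCIF1 KO cells (orange); dashed lines are medians. The control median is -1.51 and the KO median -0.27.

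Well covered members inside hosts show how this looked in single libraries. MIR6797 (chr19:41869627-41869698, plus strand) lies in an intron of RPS19, a protein of the small ribosomal subunit. It had 1218, 1269 and 1652 CPM before and 795, 763 and 932 CPM after IP in control cells. In the KO it had 1235, 1299 and 1284 CPM in the inputs and 2912, 2664 and 2829 CPM in the IPs. The IPs lay below every input in control cells and above every input in KO cells. Its enrichment was -0.72 ± 0.11 in control cells (SE, adjusted p = 1.16e-05; 0.46 when scaled to the ribosomal protein mRNAs) and 1.14 ± 0.11 in KO cells (adjusted p = 2.68e-08), and the difference was -1.86 ± 0.16 (adjusted p = 8.76e-08). The start of RPS19 did not pass the test in any of these, with 0.11, -0.22 and 0.33.

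MIR6728 (chr1:8866502-8866590, minus strand) lies in an intron of ENO1, the glycolytic enzyme enolase. Its control inputs had 1443, 1422 and 1874 CPM and its control IPs 355, 362 and 424 CPM, while the KO inputs had 1150.1, 1429.8 and 1187 CPM and the KO IPs 1030.1, 1085 and 1110.0 CPM. The IPs lay far below the inputs in control cells and just below them in KO cells. The enrichment was -2.05 ± 0.11 in control cells (adjusted p = 1.12e-11) and -0.22 ± 0.11 in KO cells (adjusted p = 0.105), a difference of -1.83 ± 0.16 (adjusted p = 1.65e-07). The host's start went the other way, at 1.47 in control cells (adjusted p = 9.19e-09), 0.42 in KO cells (adjusted p = 0.00935) and 1.05 for the difference (adjusted p = 0.000261).

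MIR6747 (chr11:62567011-62567071, minus strand) lies in an intron of EEF1G, a subunit of translation elongation factor 1. It stood at 525, 480.1 and 638 CPM before and 284, 293 and 352 CPM after IP in control cells, 486, 537 and 485 CPM before and 1069, 1041 and 1119.7 CPM after IP in KO cells. As with MIR6797, the antibody left less of it in control cells and more of it in KO cells than the input held. The enrichments were -0.82 in control cells (adjusted p = 1.62e-06; 0.37 on the ribosomal protein scale) and 1.10 in KO cells (adjusted p = 2.71e-08), with a difference of -1.92 ± 0.15 (adjusted p = 4.86e-08), and the start of EEF1G passed no test (0.00, -0.30 and 0.30). MIR6515, in an intron of the chaperone gene CALR, had 226, 233 and 238 CPM before and 179, 162 and 199 CPM after IP in control cells, against 190.3, 209.8 and 181 CPM before and 535, 530.4 and 524 CPM after IP in KO cells. Its difference was -1.82 ± 0.13 (adjusted p = 1.75e-08), against -0.59 for the start of CALR (adjusted p = 0.00333).

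MIR7111, in an intron of the ribosomal protein gene RPL10A, had 176, 199 and 270.0 CPM before and 63.9, 83.3 and 99.6 CPM after IP in control cells, 172, 202 and 188 CPM before and 262, 284 and 356 CPM after IP in KO cells. Its IPs lay below the inputs in control cells and above them in KO cells. The difference was -2.06 ± 0.22 (adjusted p = 1.57e-06), against -0.93 for the start of RPL10A (adjusted p = 0.000889). MIR6805 (chr19:55388181-55388242, plus strand) lies in an exon of RPL28, another ribosomal protein gene. It was not called in control cells, where inputs of 1033, 1034 and 1389 CPM overlapped IPs of 861, 866 and 1166 CPM (-0.26, adjusted p = 0.0968). In KO cells the inputs of 867, 1079.9 and 976 CPM lay below IPs of 2179, 2285 and 2128 CPM, and the enrichment was 1.18 ± 0.13 (adjusted p = 1.43e-07). The start of RPL28 was lower in the IP of both genotypes, at -2.41 and -1.32 (adjusted p = 1.21e-11 and 5.36e-08).

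**Figure D4:**
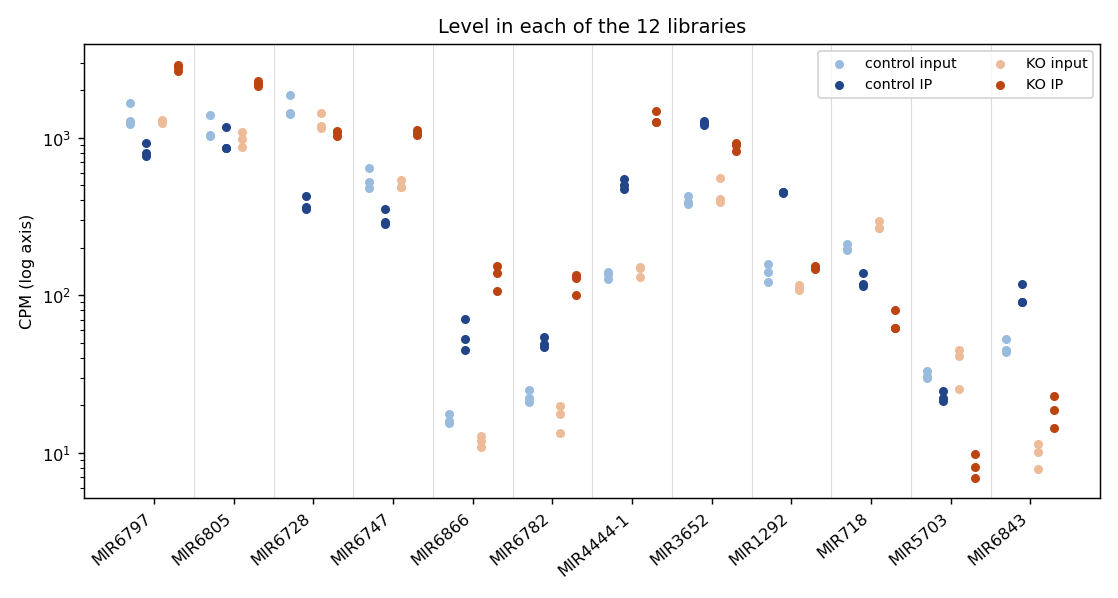
CPM (vertical, log axis) of 12 members in each of the 12 libraries, with 3 points per group for control input, control IP, KO input and KO IP. MIR6797 and MIR6747 have IPs below the inputs in control cells and above them in KO cells, whereas MIR718 and MIR5703 have their lowest values in the KO IPs.

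A few members inside hosts or on another transcript's start were enriched in both genotypes, and more so without PCIF1. MIR6866 (chr17:40161933-40162001, plus strand) lies on the start of another transcript of CASC3, a core protein of the exon junction complex. Its inputs had 15.4, 15.9 and 17.6 CPM in control and 11.8, 12.8 and 10.8 CPM in KO cells, and its IPs 52.5, 44.7 and 70.4 CPM and 106, 154 and 138 CPM. Every IP lay above every input, and every KO IP above every control IP. The enrichment was 1.75 ± 0.17 in control cells (adjusted p = 2.03e-08) and 3.47 ± 0.17 in KO cells (adjusted p = 1.22e-12), and the difference was -1.72 ± 0.23 (adjusted p = 1.86e-05). The start region listed for CASC3 was lower in the IP in both genotypes, at -0.93 and -0.94 (adjusted p = 0.000276 and 0.000237). Which of a gene's starts its listed value covers is not given in the sources used here.

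MIR6782 (chr17:44207771-44207839, minus strand), in an intron of UBTF, an activator of ribosomal RNA transcription, had 21, 22.1 and 25.2 CPM before and 47.1, 48.9 and 54.1 CPM after IP in control cells, 13.3, 17.7 and 19.9 CPM before and 134, 129 and 101 CPM after IP in KO cells. It was enriched in control cells by 1.14 ± 0.15 (adjusted p = 2.58e-06) and in KO cells by 2.85 ± 0.15 (adjusted p = 6.56e-12), with a difference of -1.71 ± 0.22 (adjusted p = 8.8e-06). The start of UBTF did not pass the test in either genotype, at 0.06 and 0.00 (adjusted p = 0.654 and 0.992). MIR922, in an exon of RUBCN, a negative regulator of autophagy, was enriched by 1.83 ± 0.34 and 3.27 ± 0.34 (adjusted p = 0.000115 and 7.29e-08) on IP values of 6.36, 7.16 and 9.72 CPM in control and 22.1, 29.8 and 20.1 CPM in KO cells. Its difference between genotypes, -1.44 ± 0.48 (adjusted p = 0.0293), was lost without control input 3, KO input 1, KO input 2, control IP 1, control IP 2 or KO IP 2 (adjusted p 0.0524 to 0.0841).

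The 2 most abundant members, MIR6850 and MIR6835, lie on starts of other than the main transcripts of RPL8, a ribosomal protein, and of HMGA1, a chromatin protein. MIR6850 had 4822, 5018 and 5258 CPM before and 1944, 1644 and 1767 CPM after IP in control cells, and 4866, 5676 and 4568 CPM before and 4025, 4145 and 3004 CPM after IP in KO cells. The IPs lay below the inputs in both genotypes, further so in control cells. The enrichment was -1.50 ± 0.12 in control cells (adjusted p = 2.7e-09) and -0.44 in KO cells (adjusted p = 0.00411). On the ribosomal protein scale these became -0.31, no longer called, and 0.17. The start region listed for RPL8 had -2.07 and -2.02. MIR6835 was at 3625, 3512 and 3716 CPM before and 1771, 1636 and 1753 CPM after IP in control cells, 3428, 3275 and 2969 CPM before and 2224, 2239 and 1957 CPM after IP in KO cells. Its enrichments of -1.07 and -0.59 (adjusted p = 7.06e-09 and 1.92e-05) became 0.11 and 0.03 on the ribosomal protein scale, and its difference of -0.48 (adjusted p = 0.0099) became 0.09.

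On shared main starts the values of member and partner gene went together, though not equally closely in all pairs. In 40 pairs with a partner value, member and partner enrichment went together in control cells (r = 0.899), in KO cells (r = 0.82) and in PCIF1-dependent enrichment (r = 0.754), whereas in 83 pairs on another transcript's start they did not (r = -0.117, 0.036 and 0.134). The member held a median of 85.6% as many reads as its partner in the first group and 33.1% in the second. In 11 pairs the reads of both differed by less than 10%, and in those the 2 entries are nearly the same measurement. Without these 11, the 29 remaining pairs had r = 0.868 in control cells, 0.763 in KO cells and 0.701 in PCIF1-dependent enrichment. In KO cells the median of these 29 members was -1.15 and that of their partners -0.33. The member lay below its partner in 19 of the 29. The pairs share libraries and in part the same reads, so r describes them only.

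**Figure D5:**
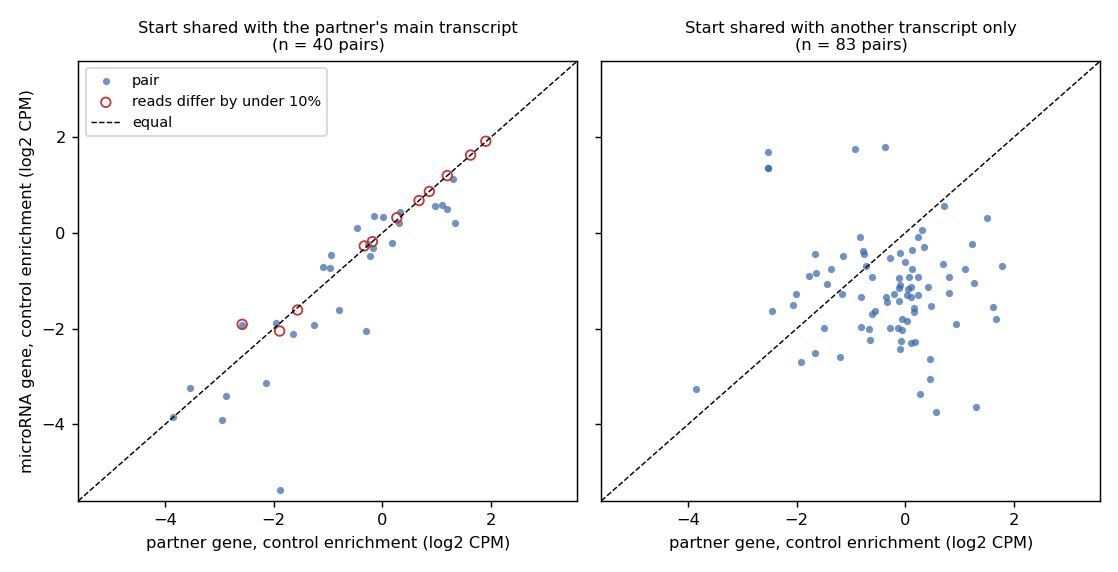
Control enrichment of the microRNA gene (vertical, log2 CPM) against that of the partner gene (horizontal, log2 CPM) for 40 pairs on the partner's main start (left) and 83 pairs on another transcript's start (right), with red circles for pairs whose reads differ by less than 10% and a dashed line of equal values. The left pairs follow the line (r = 0.899) and the right pairs do not (r = -0.117).

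The first base of the partner's main transcript was an adenosine in 12 of the 40 pairs, C in 8 and G in 20. Some of these partners are not mRNAs but long noncoding RNAs, a pseudogene or small nucleolar RNAs. The last are SNORA81 with A, and SNORA2C, SNORA18 and SNORA84 with G. The medians below are therefore not those of protein-coding partners alone. PCIF1-dependent enrichment was called higher in 6 of the 12 adenosine members and lower in 0 (median 0.58; by limma 0 were lower at an adjusted p under 0.05). It was higher in 1 and lower in 3 of the 8 members with C (median -0.36), and higher in 4 and lower in 2 of the 20 with G (median -0.43). Over all protein-coding starts, those with adenosine had 1531 higher and 346 lower of 5549, with a median of 0.37, against medians of -0.10 for C and 0.06 for G. Annotated first bases need not be the bases used in these cells.

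Of the adenosine starts, MIR3652 lies on that of HSP90B1, the endoplasmic reticulum chaperone GRP94, and its reads differ from the partner's by 0.942%. It had 382, 426 and 391 CPM before and 1203, 1271 and 1243 CPM after IP in control cells, and 406, 391 and 551 CPM before and 819, 906 and 926 CPM after IP in KO cells. The IPs lay above the inputs in both genotypes and higher in control cells, with enrichments of 1.63 and 0.99 and a difference of 0.64 ± 0.15 (adjusted p = 0.00385). MIR1181 lies on the start of CDC37, a co-chaperone of kinases, and gave 0.68, 0.28 and a difference of 0.40 ± 0.12 (adjusted p = 0.0166). MIR1292 is not among the 40 pairs, since a value of its partner was not analysed here. It lies downstream of the adenosine start of NOP56, a core protein of box C/D small nucleolar ribonucleoproteins. Its control inputs of 157, 122 and 141 CPM became 448, 453 and 451 CPM in the IPs, and its KO inputs of 110.0, 116 and 108 CPM became 146, 154 and 152 CPM. IP and input were apart in both genotypes, but by 1.69 ± 0.09 in control cells (adjusted p = 1.17e-11) and 0.44 ± 0.09 in KO cells (adjusted p = 0.00052), with a difference of 1.26 ± 0.13 (adjusted p = 1.2e-06).

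Starts without adenosine went both ways. MIR4444-1 (chr2:177212726-177212799, plus strand) lies on the start of HNRNPA3, an RNA-binding protein, with C as first base, and its reads differ from the partner's by 0.271%. It had 136, 139.6 and 128 CPM before and 476, 503 and 546 CPM after IP in control cells, against 151, 149 and 131 CPM before and 1474, 1255 and 1256 CPM after IP in KO cells. The enrichment was 1.92 ± 0.09 in control cells (adjusted p = 1.88e-12) and larger, 3.21 ± 0.09, in KO cells (adjusted p = 2.38e-15), with a difference of -1.29 ± 0.13 (adjusted p = 9.27e-07). HNRNPA3 itself gave 1.91, 3.20 and -1.29.

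MIR718 (chrX:154019920-154019989, minus strand) lies at the start of IRAK1, a kinase of Toll-like receptor signalling, whose first base is G. Its control inputs of 212, 195 and 196 CPM fell to 138, 115 and 118 CPM in the IPs, and its KO inputs of 295, 269 and 266 CPM to 61.9, 61.9 and 80.2 CPM. The loss on IP was larger without PCIF1, -2.03 ± 0.11 (adjusted p = 6.54e-12) against -0.71 ± 0.11 in control cells (adjusted p = 1.51e-05; 0.48 on the ribosomal protein scale), a difference of 1.33 ± 0.15 (adjusted p = 3.33e-06). IRAK1 had 0.67 for this difference (adjusted p = 0.000695). MIR564, which holds the reads of TMEM42 to within 0.0444%, was at 52.7, 63.3 and 63.5 CPM after IP in control cells and at 18.7, 19.1 and 31.0 CPM after IP in KO cells, and its difference was 1.27 ± 0.22 (adjusted p = 0.000213). MIR5703, at the start of AGFG1, a protein with an Arf GTPase-activating domain, had 24.8, 22.1 and 21.4 CPM after IP in control cells and 6.94, 9.82 and 8.09 CPM after IP in KO cells, with a difference of 1.69 ± 0.27 (adjusted p = 0.000114). Away from shared starts, MIR6771 in an intron of the adenylate cyclase gene ADCY7 was higher in this difference too, by 1.86 ± 0.44 (adjusted p = 0.00321), with KO IPs of 1.55, 3 and 1.79 CPM and control IPs of 10.3, 8.73 and 15.8 CPM.

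Some pairs on a main start differed in size or in sign. MIR6790 had 1.33 in KO cells (adjusted p = 3.66e-07), where its partner GTF2F1 had -0.59 (adjusted p = 0.119). MIR3655 had a PCIF1-dependent enrichment of 0.79 (adjusted p = 0.00753) and its partner IK one of -0.26 (adjusted p = 0.27). Both pairs are named after their values were seen. MIR4741, beside the start of RBBP8, a DNA end resection factor, had 45.8, 36.5 and 42.1 CPM before and 12.7, 10.8 and 7.44 CPM after IP in control cells, and an enrichment of -2.04 ± 0.17 (adjusted p = 5.38e-09), while RBBP8 had -0.29 (adjusted p = 0.0278). MIR4449, beside the start of the long noncoding RNA DANCR, had 83.1, 80.7 and 73.3 CPM before and 7.06, 10.6 and 9.72 CPM after IP in control cells. It was among the most depleted members in both genotypes, at -3.13 ± 0.16 and -2.62 ± 0.16 (adjusted p = 2.84e-12 and 3.29e-11), and DANCR had the same direction, at -2.15 and -1.22 (adjusted p = 1.73e-11 and 4.81e-08).

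Among the 16 members with only an opposite-strand start nearby, 4 were higher and 4 lower in control cells and 6 higher and 3 lower in KO cells. Of all starts 27.7% were higher and 28.2% lower in control cells, and 28.4% and 31.0% in KO cells. In control cells the class thus lay near the shares of all starts. The members named next were picked for large control enrichment and do not stand for the class. MIR4674, opposite the start of NALT1, had 5.18, 3.74 and 2.12 CPM before and 18.5, 17.4 and 17.6 CPM after IP in control cells, and its enrichment was 2.37 ± 0.37 (adjusted p = 1.52e-05). MIR6090, opposite ETS1, and MIR3661, opposite PPP2CA, were enriched by 2.16 ± 0.41 and 1.90 ± 0.32 in control cells (adjusted p = 0.00017 and 3.59e-05) and by 2.47 and 1.37 in KO cells. Whether these reads come from the member's strand cannot be told without the strand setting of the counting.

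Mirtrons, the hairpins released by splicing, were lower in the control IP in most cases. Of the 10 listed among the members, 9 passed the test as lower, where 300 of all 453 members and 28.2% of all starts did, and of the 9 MIR877, MIR1227 and MIR1238 turned positive on the ribosomal protein scale. MIR1229, in an intron of the glycosyltransferase gene MGAT4B, had 164, 173 and 193 CPM before and 24.8, 25 and 29.3 CPM after IP in control cells, and 181, 180.0 and 184 CPM before and 82.0, 56.6 and 67.6 CPM after IP in KO cells. IPs were below inputs in both genotypes, by -2.75 ± 0.12 in control (adjusted p = 5.95e-13) and -1.42 ± 0.12 in KO cells (adjusted p = 5.36e-09), a difference of -1.33 ± 0.17 (adjusted p = 1.17e-05). The start of MGAT4B had a difference of the other sign, 0.65 (adjusted p = 0.00136). MIR1225 in PKD1, MIR1226 in DHX30 and MIR1228 in LRP1 had -2.00, -1.72 and -1.99 in control cells and PCIF1-dependent differences of -1.27, -1.63 and -1.52 (adjusted p = 0.000177, 8.83e-05 and 0.000723).

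MIR1236, in NELFE, a subunit of the negative elongation factor, did not pass the test in control cells, where inputs of 38.0, 42.2 and 50.3 CPM overlapped IPs of 42.5, 31.6 and 41.5 CPM. In KO cells its inputs of 45.7, 40.4 and 33.9 CPM lay below IPs of 89.8, 83.8 and 70.5 CPM, an enrichment of 1.03 ± 0.15 (adjusted p = 7.16e-06), and the difference was -1.21 ± 0.21 (adjusted p = 0.000254). MIR877, the mirtron of ABCF1, had 28.2, 27.1 and 23.1 CPM before and 52.6, 47.8 and 48.2 CPM after IP in KO cells (0.92 ± 0.17, adjusted p = 9.44e-05). Its control enrichment of -0.45 (adjusted p = 0.0282) was lost without control input 3, control IP 1 or control IP 2 (-0.38 to -0.29, adjusted p 0.107 to 0.189) and was 0.73 on the ribosomal protein scale, while its difference was -1.38 ± 0.24 (adjusted p = 0.000217). The start of ABCF1 was strongly enriched in both genotypes, at 2.48 and 2.62.

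The 3 members with the seed GGCGGGG printed above had unlike values. Among them MIR1908, on the start of another transcript of the desaturase gene FADS1, was enriched in both genotypes, by 1.79 ± 0.25 and 1.57 ± 0.25 (adjusted p = 3.71e-06 and 1.74e-05), from control inputs of 4.38, 4.20 and 5.62 CPM and control IPs of 16.8, 17.9 and 14.3 CPM. MIR663A, on the start of another transcript of its host MIR663AHG, was depleted in both, by -3.23 ± 0.18 and -3.12 ± 0.18 (adjusted p = 1.12e-11 and 1.57e-11), from control inputs of 150.0, 149 and 141 CPM and control IPs of 13.1, 17.1 and 17.1 CPM. The third, MIR6787 on the start of another transcript of SLC16A3, a lactate transporter, had -1.34 ± 0.45 (adjusted p = 0.0149), a call lost without control input 1, control input 3 or control IP 2 (adjusted p 0.0553 to 0.0612). A seed belongs to the mature microRNA, and these reads come from transcripts around the hairpin.

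The let-7 genes, whose microRNAs restrain growth and stem cell programmes, differed in abundance. MIRLET7I had 21.3, 26.0 and 23.4 CPM before and 8.46, 7.95 and 8.2 CPM after IP in control cells, an enrichment of -1.52 ± 0.21 (adjusted p = 3.44e-06), and its PCIF1-dependent difference of -0.79 ± 0.30 did not pass (adjusted p = 0.0503). MIRLET7B and MIRLET7A3 were lower in control cells, by -1.42 and -1.43 (adjusted p = 0.00423 and 0.00487), and MIRLET7A2 did not pass (-1.20, adjusted p = 0.103). On the ribosomal protein scale MIRLET7I, MIRLET7B and MIRLET7A3 had -0.33, -0.23 and -0.25 in control cells. These were no longer called (adjusted p = 0.227, 0.61 and 0.6). MIRLET7D was near the limit of detection, with 4 reads in each control input and 1, 1 and 0 in the control IPs, and its control call (adjusted p = 0.0123) was lost without control IP 3 (adjusted p = 0.0636). MIR21, an abundant oncogenic microRNA, lies in the last part of VMP1, and its row had 4.64, 6.49 and 8.54 CPM before and 2.17, 2.70 and 2.61 CPM after IP in control cells (-1.36 ± 0.37, adjusted p = 0.00421), while the start of VMP1 was enriched by 1.48 (adjusted p = 1.85e-10). On the ribosomal protein scale the control values of MIRLET7D and MIR21 were -1.31 and -0.17, no longer called (adjusted p = 0.162 and 0.712). In KO cells MIR21 had overlapping inputs and IPs (0.01, adjusted p = 0.989). MIR320A, known for a capped hairpin at its own start, was close to the limit of detection, with 1.42, 0.992 and 2.12 CPM before IP in control cells and 0 reads in 1 control IP and 2 KO IPs. Its KO enrichment passed the test (adjusted p = 0.0451) but was lost without any 1 of the 6 inputs, control IP 3, KO IP 1 or KO IP 2 (adjusted p 0.0518 to 0.151), and the control enrichment did not pass (adjusted p = 0.0735). At this depth 0 reads allow up to 3 reads, or 0.699 to 1.72 CPM in the IPs, and no fold is given.

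Levels before the antibody differed for few members between genotypes. In the inputs 11 members were higher and 25 lower in the KO, where 5.56% and 5.67% of all starts were, and the median change was -0.15 against -0.02. With voom weights the counts were 14 and 49, and without control input 3 they were 3 and 14. Without control input 1 or 2, or KO input 1, 2 or 3, the number higher was 5, 3, 6, 4 and 3. MIR6843, in the gene of the secreted chaperone CLU, fell by 2.28 on the log2 scale (-2.28 ± 0.18, adjusted p = 6.92e-08), from 52.5, 45.2 and 43.6 CPM before IP in control cells to 10.1, 11.4 and 7.87 CPM before IP in KO cells. It was enriched by the antibody in both genotypes, with 118, 90.3 and 91.0 CPM after IP in control cells and 18.7, 23.0 and 14.4 CPM after IP in KO cells.

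Further members differed between the inputs of the 2 genotypes. MIR4260, in LAMB3, a laminin chain, had 15.4, 14.5 and 18.5 CPM before IP in control cells and 4.09, 5.76 and 5.27 CPM before IP in KO cells (-1.68 ± 0.38, adjusted p = 0.00584), and the start of LAMB3 changed by -1.93 (adjusted p = 0.000552). MIR6854, on the start of another transcript of TBC1D2, a GTPase-activating protein, rose from 14.9, 14.1 and 17.3 CPM to 26.8, 33.6 and 29.3 CPM (0.96 ± 0.18, adjusted p = 0.00142), and TBC1D2 by 0.80 (adjusted p = 5.77e-05). MIR6824, on the start of another transcript of the anion exchanger gene SLC26A6, fell from 12.2, 11.5 and 10.3 CPM to 5.53, 4.41 and 5.60 CPM (-1.14 ± 0.25, adjusted p = 0.00535), while SLC26A6 did not pass (adjusted p = 0.117). In none of these did inputs of the 2 genotypes overlap.

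Below the mean level set for named members, 3 members were nearly absent from KO cells, and they are named after their values were seen. MIR4428, in the calcium channel gene RYR2, had 35, 40 and 34 reads in the control inputs and 34, 38 and 36 in the control IPs, but 1, 0 and 0 reads in the KO inputs and 0, 1 and 0 in the KO IPs. MIR4787, at the start of DOCK3, a guanine nucleotide exchange factor, had 48, 57 and 53 reads in the control inputs and 3, 0 and 3 in the KO inputs, and DOCK3 itself had 8, 9 and 11 reads against 0 in each KO input. MIR4257, at a start of ADAMTSL4, had 12, 14 and 9 reads in the control inputs and 1, 1 and 0 in the KO inputs. All 3 passed the test (adjusted p = 2.07e-05, 0.000861 and 0.0105), and with counts this low no fold is given. Whether this belongs to the loss of PCIF1 or to the line it was made in cannot be told apart, since the labels do not say whether the KO replicates are separate clones.

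What members share in sequence was checked in windows of 301 bases centred on each start, both for the motif GGACT, the core of the sequence that the m6A writer prefers, and for its reverse complement AGTCC. The first was present in 28.9% of members and 26.4% of all starts with a window, and the second in 24.3% and 25.8%. Members higher in the KO IP held GGACT in 33.3% of cases, those lower in 29.9% and those not called in 26.3%. Inside hosts the shares were 37.1% of 62, 34.4% of 93 and 24.8% of 125. AGTCC was found there in 27.4%, 31.2% and 22.4%, so both motifs were least frequent there in members not called. In host introns this held too, with GGACT in 37.9% of 29, 34.9% of 63 and 21.1% of 90 and AGTCC in 24.1%, 38.1% and 18.9%. In host exons it did not, with 36.4% of 33, 33.3% of 30 and 34.3% of 35 for GGACT and 30.3%, 16.7% and 31.4% for AGTCC. On another transcript's start GGACT was most frequent in members not called, at 9.09% of 11, 21.4% of 28 and 29.2% of 48. The first of these shares rests on 1 member. The median GC content of the windows was 59.8% for members, 64.1% for all starts, 68.6% for members on a main start and 58.1% for those inside hosts, so base composition moved with the classes, and its part in the enrichments was not tested.

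Of 34 listed genes of the microRNA pathway, 33 have a value. In control cells 16 were higher (48.5%) and 8 lower (24.2%), where 27.7% and 28.2% of all starts were, with a median of 0.19 against -0.01. In KO cells 12 were higher (36.4%) and 10 lower (30.3%), against 28.4% and 31.0%. PCIF1-dependent enrichment was higher in 10 (30.3%) and lower in 2 (6.06%), against 15.8% and 13.0%. The inputs were higher in 2 and lower in 1, against 5.56% and 5.67%. All starts differ from these genes in type and level. In PCIF1-dependent enrichment 19.9% of protein-coding starts were higher and 10.2% lower. Among those with a mean of at least 5 the shares were 34.0% and 15.0%, and 2172 of 4828 were higher in control cells. Whether pathway genes differ from protein-coding starts of like level was not tested. HNRNPA2B1, an RNA-binding protein that can bring primary microRNAs to Drosha, had 1.37 in control and -0.28 in KO cells, a difference of 1.65 (adjusted p = 1.75e-08). KHSRP, DDX5 and DDX17, which promote Drosha or Dicer cutting of some precursors, had differences of 0.96, 1.32 and 0.95 (adjusted p = 1.75e-05, 0.000106 and 0.000144). The 2 genes lower in this difference were DROSHA, at -1.28 (adjusted p = 0.00731), and the exonuclease gene XRN2, at -0.54 (adjusted p = 0.0275). In the inputs KHSRP rose by 0.43 (adjusted p = 0.00424) and RAN, the GTPase of exportin-5, by 0.38 (adjusted p = 0.0278), while SRRT, a partner of the nuclear cap-binding complex, had -0.75 (adjusted p = 0.00209).

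The 34 long host transcripts named for a microRNA gave 8 higher (23.5%) and 7 lower (20.6%) in control cells, shares below the 27.7% and 28.2% of all starts. In KO cells 11 were higher (32.4%) and 7 lower (20.6%), against 28.4% and 31.0%. In PCIF1-dependent enrichment 0 were higher and 3 lower (8.82%) by limma, against 15.8% and 13.0%. Long noncoding RNA starts as a whole lay nearer. Of them 21.5% were higher and 16.4% lower in control cells, and 32.0% and 12.6% in KO cells. In PCIF1-dependent enrichment 3.57% of them were higher and 12.3% lower. The 3 were MIR100HG and MIR762HG, at -0.88 and -1.43 (adjusted p = 0.0319 and 0.0239), and MIR4527HG (adjusted p = 0.00428). MIR4527HG had 0.541, 0.6 and 0.583 CPM in the control IPs, where 3 reads are 0.699 to 0.787 CPM. No fold of its enrichment is given. MIR4527HG also stood out in the inputs, with 1.42, 0.763 and 1.53 CPM in control and 109.4, 105.3 and 82.3 CPM in KO cells (adjusted p = 5.04e-12), and these transcripts were named after their values were seen.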

How the data were processed

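The authors deposited log2 CPM values of 16009 gene starts in 12 libraries. The submitters' processing notes name build hg38 and, with no order, deepTools 3.0.2, edgeR 3.12.1, featureCounts, HISAT2 2.0.4, R 3.3.3 and SAMtools 1.7. For the window, annotation, strand setting and filter nothing is given in the sources used here. Assuming that 0.25 counts were added, 100% of the values become whole reads within 0.01, which gave the depth. Reads carry no molecular identifiers, and intervals and floors cover counting error only.

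The columns carry numbers and the labels letters, so that columns were assigned to groups only. Package limma 3.58.1 (R 4.3.3) was fitted with 4 group means with a mean-variance trend over all starts and no replicate block, and adjusted p-values come from all 16009 starts. Gene types and positions come from GENCODE 44 (15903 starts matched), and sequences from RefSeq and the hg38 reference. Named were the 5 most abundant members, up to 6 each way per comparison with the largest called difference, no overlap and a mean of at least 1, the 8 most abundant with no shared start, known mirtrons, let-7 genes and other known microRNAs, partner genes, and up to 4 pathway genes per comparison. Members named for another reason are so marked. The members and lists were chosen with earlier results of these data known. The split into main and other starts, the level classes, the host comparison and the sequence windows were chosen after seeing the data. Alternatives were other scalings, pseudocounts, a filter, other models of the spread, a replicate block, leaving out each library and other start distances. The fit was tested on simulated data.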

Additional observations from a re-analysis of the deposited data

Results flagged for a closer look

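By limma, 35 members were called in opposite directions in the 2 genotypes with a called difference between them, 32 of them lower in control and higher in KO cells and 3 the other way. Of the named members, 7 were among the 32, and for each the difference of the enrichments, control minus KO, was tested in the same fit. MIR6797 had a difference of -1.86, MIR6747 of -1.92, MIR6515 of -1.82 and MIR7111 of -2.06, all 4 in introns. MIR6755, in an exon of EED, a Polycomb subunit, had 5.45, 5.12 and 3.87 CPM before and 2.17, 1.39 and 1.34 CPM after IP in control cells, and 3.81, 3.05 and 3.97 CPM before and 8.90, 7.87 and 9.23 CPM after IP in KO cells, and its difference was -2.85. The start of EED was enriched in both genotypes, at 1.0 and 1.31. MIR7705, in PABPC1, the cytoplasmic poly(A)-binding protein, had a difference of -1.94, and its control enrichment was lost without control input 2, control input 3, control IP 1 or control IP 3 (-0.66 to -0.46). MIR877, the mirtron of ABCF1, had a difference of -1.38. On the ribosomal protein scale the control enrichments of MIR6797, MIR6747, MIR6515, MIR7705 and MIR877 were above 0, and those of MIR7111 and MIR6755, at -0.20 and -0.39, no longer passed (adjusted p = 0.298 and 0.326), so that none of the 7 had opposite calls on that scale. With each library centred on its median all 7 stayed below 0 in control cells, where MIR7705 (-0.56, adjusted p = 0.0518) and MIR877 (-0.36, adjusted p = 0.0838) no longer passed.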

How the results depend on the processing

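Leaving out 1 library at a time gave 23 to 27 members higher and 276 to 311 lower in control cells (median -1.57 to -1.45), 79 to 89 and 135 to 160 in KO cells (-0.42 to -0.33), 13 to 16 and 172 to 206 in PCIF1-dependent enrichment (-1.18 to -1.03) and 3 to 11 and 14 to 31 in the inputs (-0.20 to -0.08). Centred on ribosomal protein mRNAs, 63.6% of all starts were higher and 5.83% lower in control cells. The shares were 45.8% and 14.7% in KO cells, and 37.6% and 4.9% in PCIF1-dependent enrichment. With ribosomal protein mRNAs as the centre, 98 members were higher and 124 lower in control cells (median -0.33), 151 and 81 in KO cells (0.24, reversed) and 27 and 116 in PCIF1-dependent enrichment (-0.55). It also turned MIR6850 in KO cells (0.17), MIR6835 (0.11 in control, 0.03 in KO and 0.09 for the difference) and, in control cells, MIR6797 (0.46), MIR718 (0.48), MIR4260 (0.08), MIR7705 (0.53), MIR6872 (0.00), MIR6747 (0.37), MIR6515 (0.82), MIR1227 (0.28), MIR877 (0.73) and MIR1238 (0.34). Centring on the median moved the control median to -1.42. With log2(CPM + 1) the medians were -1.08, -0.25 and -0.84 in control cells, KO cells and PCIF1-dependent enrichment, and with log2(CPM + 0.25) they were -1.36 in control cells and -1.01 for the difference. The 329 members past a filter of log2 CPM 2 in 3 libraries had medians of -1.45, -0.26 and -1.18 and 7 higher inputs. The 310 members with no shared or neighbouring start had 10 higher in control cells, 99 lower in KO cells, 2 higher in PCIF1-dependent enrichment (-1.22) and inputs with 4 higher and 15 lower (-0.21). Inputs gave 7 higher and 15 lower with no mean-variance trend, and 14 higher and 49 lower with voom weights. Shared starts numbered 36 within 0 bases and 42 with main transcripts only, a limit added after seeing the data. Of 161 calls on named members, 0 were lost with a replicate block by column number and 23 in at least 1 fit that left out a library. Centring on ribosomal protein mRNAs left 110 of the 161 the same, while 37 were no longer called and 14 changed sign. Without a mean-variance trend 15 were no longer called. The column numbers were not taken as pairs, because the labels give no such link and the 3 numbers differed: libraries with number 1 or 3 correlated at 0.1 to 0.244 and those with number 2 at -0.0754 to 0.0894. The causes of these changes were not tested. Depth limits members near 0 reads, where a fitted difference depends on the added count.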
